A study of Sus scrofa with 12 samples.

Results

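Muscle takes most of its fatty acids from the blood, and 8 genes of this step are described here: the lipase LPL, its inhibitor ANGPTL4, the receptors and transporters VLDLR, CD36 and SLC27A1, and the binding proteins FABP3, FABP4 and FABP5. They were chosen by name for these roles, and are 8 of 28224 annotated genes on the chromosomes and 8 of the 12407 genes that were tested. All 8 were above 0 in 12 of 12 libraries and passed the minimum of 0.5 FPKM (fragments per kilobase of transcript, scaled to the number of mapped fragments). The samples were longissimus dorsi (LD), the long loin muscle, of 12 castrated male Iberian pigs that were fattened outdoors on acorns and grass and slaughtered at a similar age. The 6 pigs of the H group had high and the 6 of the L group low estimated breeding values (EBV) for intramuscular fat (IMF), and no treatment or introduced allele is labelled for either group. The labelled IMF was 10.6 to 13.8% in H and 1.7 to 2.28% in L. The labelled values of L are lower than the group mean in the study's methods, and the labels were used here. The pigs were the extremes of a larger population and close siblings were avoided, so that each library is a separate animal, but the labels do not say which pigs shared a fattening or slaughter batch.

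Lipoproteins carry triglycerides in the blood. Lipoprotein lipase, made by muscle and fat cells, is moved to the inner face of capillaries and releases fatty acids there, ANGPTL4 inhibits it, and VLDLR binds triglyceride-rich particles beside it. CD36 and SLC27A1 bring the fatty acids across the membrane. Small cytosolic binding proteins then carry them, FABP3 mainly in oxidative muscle fibres, FABP4 in adipocytes and capillary endothelium, and FABP5 in several cell types including endothelium.

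On the log2 scale the gene with the largest difference between the groups was LPL, with a mean of 44.1 ± 16.5 scaled FPKM in H and 25.4 ± 4.02 in L (SD, n = 6 each), but it was not called after adjustment over all genes. Of the 8 genes 0 were called by limma at an adjusted p under 0.1, where 1 of all genes tested was (0.00806%). At an unadjusted p under 0.05 LPL alone passed, 1 of 8, beside 7.32% of all genes, or 3.95% when only genes higher in H are counted. The log2 fold change (log2FC, H minus L) was above 0 for 7 of the 8 genes, against 50.5% of all genes tested, with VLDLR as the exception. The log2 ratio of the group means was at most 0.80 in size, for LPL, so that 0 of the 8 genes reached a minimum of 1.2 on this scale. The median log2FC of the 8 genes was 0.30, and that of all genes tested was 0.0027. In bulk muscle a change in the number of cells of a type cannot be told apart from a change in the RNA of each cell.

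Sequences are shown for the genes whose transcript forms the data bear on. In VLDLR (Sscrofa11.1 chr1:219178501-219210332, minus strand) an annotated coding exon of 84 bases, chr1:219181482-219181565, lay inside an intron that was spliced in 12 of 12 libraries. It is given here on the gene's strand with the exon in capitals and 10 intron bases on each side in lower case.
VLDLR exon: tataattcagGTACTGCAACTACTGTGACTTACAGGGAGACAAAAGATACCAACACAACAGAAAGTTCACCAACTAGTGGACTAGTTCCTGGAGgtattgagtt
The exon is in 4 of the 8 RefSeq transcripts of the gene and its length is a multiple of 3, so that leaving it out keeps the reading frame over 28 codons. The intron that skips it was chr1:219181106-219182751. The assembled VLDLR of these muscles was therefore the form without this exon in every H and every L pig, and forms too rare to be assembled are not listed in the files. VLDLR is known as a receptor with several splice forms.

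CD36 (chr9:99685748-99782296, minus strand) was assembled with 3 alternative first exons joined to the same second exon. Start A, nearest to the coding exons, is annotated at base 99736131, start B at base 99751567 and start C, the farthest, at base 99782296. The 250 bases before each start are shown, counted from the outermost start that was annotated or assembled, as chr9:99736132-99736381, chr9:99751568-99751817 and chr9:99782440-99782689, on the minus strand. Capitals mark matches to any of 5 short promoter motifs, TATAAA of the TATA box, CCAAT of the CCAAT box, GGGCGG of SP1 sites, AGGTCA of nuclear receptor sites and CACGTG of E-boxes, on either strand.
CD36 start A window: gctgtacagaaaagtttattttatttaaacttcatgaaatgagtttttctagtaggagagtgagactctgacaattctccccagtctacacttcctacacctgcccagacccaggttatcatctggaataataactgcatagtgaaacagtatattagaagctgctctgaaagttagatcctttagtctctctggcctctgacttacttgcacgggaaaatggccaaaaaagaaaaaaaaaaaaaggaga
CD36 start B window: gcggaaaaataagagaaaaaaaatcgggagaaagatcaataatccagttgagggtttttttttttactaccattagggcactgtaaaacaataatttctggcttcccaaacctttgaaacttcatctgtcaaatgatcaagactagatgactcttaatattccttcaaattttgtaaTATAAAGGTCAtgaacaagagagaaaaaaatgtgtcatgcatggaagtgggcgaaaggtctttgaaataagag
CD36 start C window: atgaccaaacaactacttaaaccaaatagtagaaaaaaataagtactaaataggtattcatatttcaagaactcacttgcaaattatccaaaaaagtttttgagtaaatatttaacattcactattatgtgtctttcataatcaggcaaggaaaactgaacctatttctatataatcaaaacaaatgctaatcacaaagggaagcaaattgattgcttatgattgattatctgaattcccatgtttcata
The window of start B held TATAAA and AGGTCA, which overlap here by 1 base, and the windows of starts A and C held 0 of the 5 motifs. Over 19559 windows of 250 bases before protein-coding genes, TATAAA was found in 9.8%, AGGTCA in 12.3%, CCAAT in 31.9%, GGGCGG in 45.9% and CACGTG in 6.4%. All 3 windows had few G and C bases, 38.0% at start A, 33.6% at start B and 27.2% at start C, beside a median of 57.6% over all windows. A match in these letters is a description of the sequence and not evidence of binding.

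LPL and its inhibitor ANGPTL4, which act on the release of fatty acids in the capillary, are described first. LPL (chr14:4104761-4134964, plus strand) had 28.4, 71.0, 43.8, 25.6, 50.1 and 46.0 scaled FPKM in H pigs 1 to 6 and 28.3, 20.3, 28.5, 27.4, 20.2 and 27.7 in L pigs 1 to 6. Pigs H2, H3, H5 and H6 lay above every L pig, while H1 and H4 lay inside the L range. The log2FC was 0.72 with a SE of 0.23 and a 95% interval of 0.22 to 1.22 (limma adjusted p = 0.574), and the exact permutation test gave p = 0.026, two-sided. The coefficient of variation was 37.3% in H and 15.8% in L. LPL was assembled as its full annotated intron chain in 11 of 12 libraries, and in L3 it was split into 2 fragments with a mean length of 1912 bases. In L4 the transcript was 1644 bases long, with the 3' end missing, against 3415 to 4392 bases in the 10 other pigs.

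FPKM divides by transcript length, so the product of FPKM and transcript length in kilobases (FPM), which estimates the share of fragments that the gene received, was also compared. This measure was chosen after the data were seen. On it LPL had 85.9 to 267 FPM in H and 43.8 to 98.3 in L, and 5 of 6 H pigs lay above all L pigs. The log2FC was 1.01 with a SE of 0.28 (limma adjusted p = 0.31, exact permutation p = 0.0108). Read coverage over the annotated exons gave a log2FC of 1.01 with a SE of 0.27 (limma adjusted p = 0.391). With annotated intron chains only, where L3 counts as 0, the log2FC of LPL was 1.73 with a SE of 0.90 and did not pass an unadjusted p of 0.05 in limma (adjusted p = 0.839).

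ANGPTL4 (chr2:70905767-70912892, minus strand) was low in this muscle, with a lowest, median and highest value of 4.41, 9.77 and 12.5 scaled FPKM in H and 3.77, 6.81 and 15.2 in L. The groups overlapped over nearly their whole range, and the highest pig of all was L5. The mean was 8.97 ± 3.23 in H and 7.48 ± 4.16 in L (SD, n = 6), and the log2FC was 0.31 with a 95% interval of -0.41 to 1.03 (limma adjusted p = 0.848). It was 0.53 without L5 and 0.48 without H1, and 0.16, 0.17 and 0.20 without L6, L2 and H6. In L5 the transcript was assembled in 2 pieces with a mean length of 946.6 bases, the shortest of the 12 libraries, in which the other lengths were 1782 to 2386 bases. In FPM L5 had 14.1, and 4 of 6 H pigs lay above all L pigs.

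**Figure D1:**
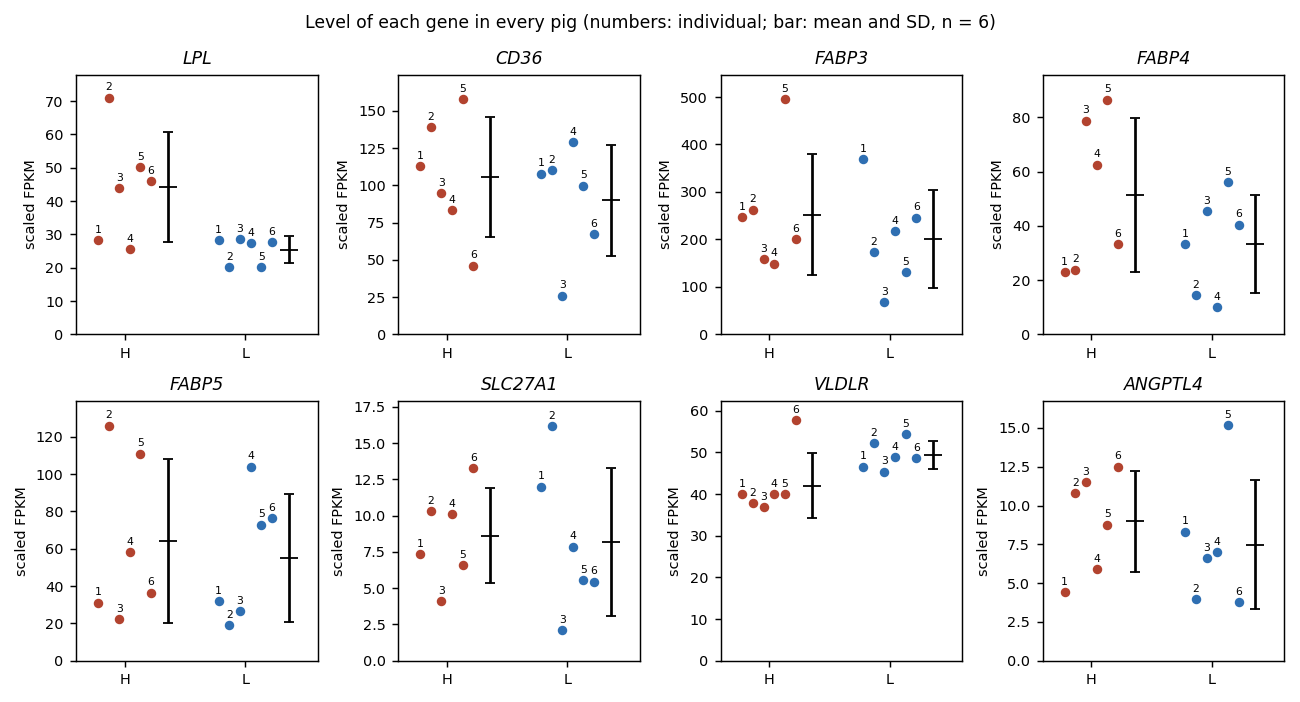
Scaled FPKM (vertical axis) of the 8 genes in each of the 6 H pigs (red) and 6 L pigs (blue), with the individual number above each point and the mean and SD as a bar. LPL in H2, H3, H5 and H6 sits above all L pigs, VLDLR in 5 of 6 H pigs sits below all L pigs, and the groups of the other genes overlap.

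Among the receptors and transporters, VLDLR was the only gene with a log2FC below 0. It had 36.8, 40.0 and 57.7 scaled FPKM as lowest, median and highest value in H and 45.4, 48.8 and 54.5 in L. Of the H pigs 5 lay below every L pig, and H6 lay above every L pig. The mean was 42.1 ± 7.79 in H and 49.4 ± 3.42 in L (SD, n = 6), with a log2FC of -0.24, a SE of 0.12 and a 95% interval of -0.51 to 0.02 (limma adjusted p = 0.693, exact permutation p = 0.0519). Without H6 the log2FC was -0.34 and passed an unadjusted p of 0.05 in limma (adjusted p = 0.612). VLDLR was the least variable of the 8 genes, with a 1.57-fold range over the 12 pigs. In FPM the log2FC was -0.15 (limma adjusted p = 0.637, exact permutation p = 0.145).

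CD36, the main membrane receptor for long-chain fatty acids in muscle, had 46.2, 104 and 158 scaled FPKM as lowest, median and highest value in H and 26.1, 104 and 129 in L. The medians were equal to 3 digits, and the groups overlapped. The log2FC was 0.29 with a 95% interval of -0.57 to 1.14 (limma adjusted p = 0.885). On FPKM the lowest pig, L3, set the direction, since without it the log2FC was -0.033. Leaving out L3 was not tested on FPM.

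The 3 first exons of CD36 were all assembled in both groups. Start A carried 21.2 to 84.7% of the FPKM of CD36 transcripts with a first exon in H and 17.6 to 59.5% in L, and was assembled in 12 of 12 libraries. Start B was found in 10 libraries, 5 of each group, with means of 39.2 ± 28.9% in H and 31.0 ± 24.7% in L. Start C was found in 4 H and 5 L libraries, with means of 12.8 ± 11% and 28.2 ± 20.9% (SD, n = 6). The shares varied as much within a group as between the groups, and no test was made because the starts were picked after the transcripts were seen. In H2 66.7% of the CD36 FPKM was in transcripts without any of the 3 first exons. The weighted length of the CD36 transcripts ran from 3172 bases in L2 to 10099 bases in H6, and H6 had the lowest FPKM of the H group. In FPM H6 had 449.5, above the 167 to 409.8 of the L pigs.

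**Figure D2:**
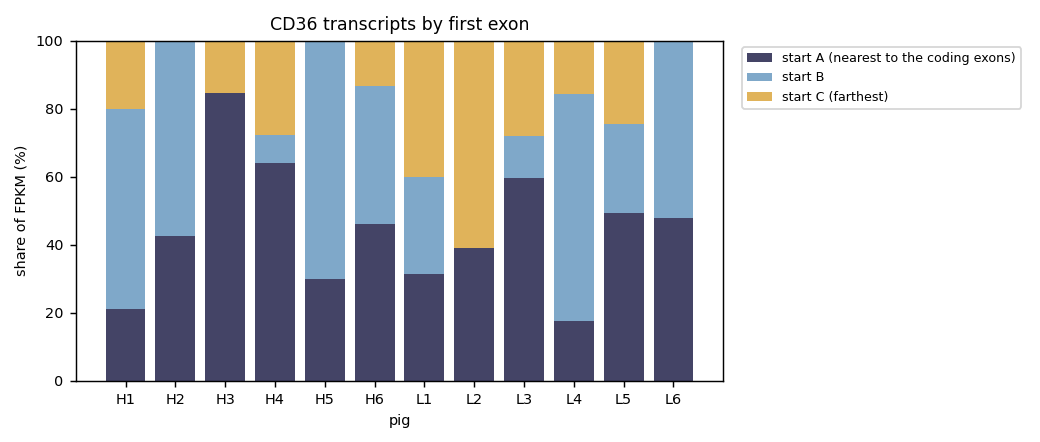
Share of CD36 FPKM (percent, vertical axis) by first exon in each pig, stacked to 100% over the transcripts that hold one of the 3 starts. Start A is present in every pig, from 17.6% in L4 to 84.7% in H3, and start B or start C is missing in 5 pigs.

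SLC27A1 (chr2:60203374-60235689, minus strand), which encodes the fatty acid transport protein FATP1, was the other low member. It had 4.12, 8.73 and 13.3 scaled FPKM as lowest, median and highest value in H and 2.12, 6.71 and 16.2 in L. The lowest and the highest pig were both L pigs, L3 and L2. The log2FC was 0.21 with a 95% interval of -0.67 to 1.10 (limma adjusted p = 0.916), and without L3 it was -0.085. It was also the gene with the most broken models, with 26 transcripts over the 12 libraries and a full annotated chain in 4 of them. Transcripts wholly inside its introns were listed in 3 libraries, 2 of H and 1 of L, at 1.12 to 2.17 FPKM (exact permutation p = 1.0), while the 7 other genes had 0 in any library. Antisense transcripts over the exons of the 8 genes numbered 0. These intronic and antisense counts cover only transcripts that were assigned to no annotated gene.

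The binding proteins varied widely from pig to pig. FABP3 (chr6:87943003-87950708, minus strand) was the highest of the 8 genes, with 149, 224 and 495 scaled FPKM as lowest, median and highest value in H and 68.3, 196 and 369 in L. The groups overlapped and H5 stood apart at the top. The log2FC was 0.38 with a 95% interval of -0.47 to 1.23 (limma adjusted p = 0.837). It was 0.11 without L3, 0.16 without H5 and 0.59 without L1. FABP4 (chr4:55096400-55101209, plus strand) had 22.9, 48.0 and 86.5 in H and 9.95, 36.9 and 56.0 in L. Pigs H3, H4 and H5 lay above all L pigs and H1, H2 and H6 inside the L range. The log2FC of FABP4 was 0.65, with a SE of 0.48 and a 95% interval of -0.39 to 1.69 (limma adjusted p = 0.784, exact permutation p = 0.247), and it was 0.36 without L4. FABP5 (chr4:55277831-55282585, minus strand), on the same chromosome as FABP4, had 22.3, 47.3 and 126 in H and 19.0, 52.5 and 104 in L. Its log2FC was 0.19 with a 95% interval of -0.94 to 1.32 (limma adjusted p = 0.946), and the median was higher in L while the mean was higher in H.

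Much of the spread of FABP5 moved with the length of the assembled transcripts. The weighted length was 499 bases in L4, 761.7 in H2 and 800.5 in H5, the 3 pigs with the highest FPKM of 104, 126 and 111. It was between 1798 and 1947 bases in H1, H3, H6, L1, L2 and L3, which had the 6 lowest FPKM values, 19.0 to 36.5. In FPM the range over the pigs fell from 6.64-fold to 2.67-fold and the SE from 0.52 to 0.21, with a log2FC of 0.29 (limma adjusted p = 0.658, exact permutation p = 0.223). FABP4 was assembled at 1673 bases in H1 and 1820 bases in L4, where its FPKM was lowest in each group, and at 551 to 752.8 bases in the other pigs. In FPM 4 of 6 H pigs lay above all L pigs for FABP4 and the log2FC was 0.70 with a SE of 0.34 (limma adjusted p = 0.495, exact permutation p = 0.0952). For FABP3 the pig at the top changed with the measure. H5, with a 606-base transcript, had the highest FPKM, and H2, with a 2388-base transcript, had the highest FPM, 644. The part of these lengths in the group differences was not tested.

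**Figure D3:**
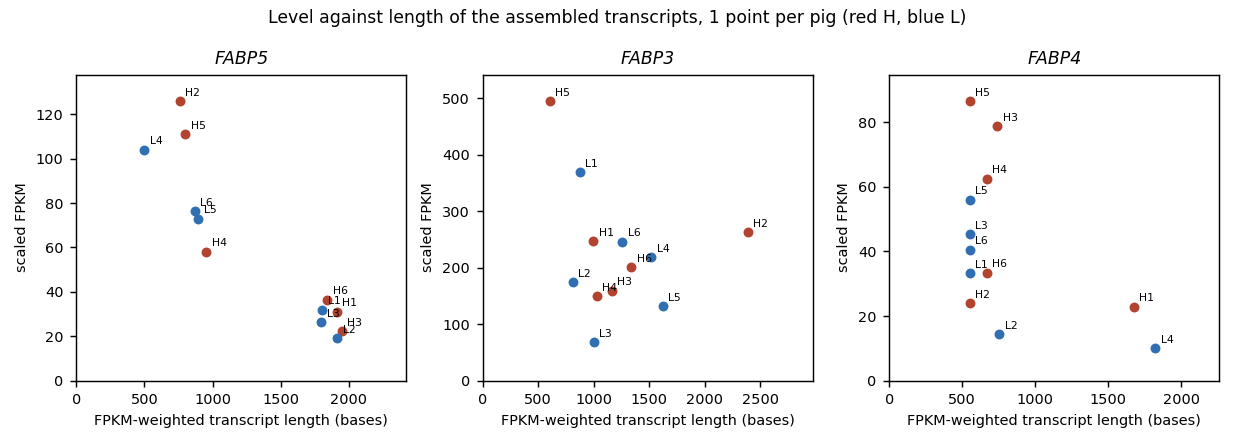
Scaled FPKM (vertical axis) of FABP5, FABP3 and FABP4 against the FPKM-weighted length in bases of their assembled transcripts (horizontal axis), 1 point per pig, H in red and L in blue. For FABP5 the 6 pigs with lengths of 1798 bases or more have the 6 lowest values, 19.0 to 36.5.

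The 3 FABP genes have coding sequences of 402, 399 and 408 bases for FABP3, FABP4 and FABP5, which were identical at 67.7% of aligned bases between FABP3 and FABP4, 62.7% between FABP4 and FABP5 and 59.5% between FABP3 and FABP5. FABP3 alone of the 3 had near copies elsewhere in the genome. Stretches of at least 76 bases with at least 95% identity covered 61.5% of its exonic bases, at 6 sites, and 2 loci, chr6:82298589-82298863 and chr17:16028773-16029047, hold 2 neighbouring exons joined without the intron. At the locus on chromosome 17 a transcript was assembled in L5, listed at 6.29 FPKM before scaling. How reads were shared between FABP3 and these sites was not tested. FABP4, FABP5, SLC27A1, VLDLR and ANGPTL4 had 0 such sites. Those of LPL covered 3.6% and those of CD36 7.4% of the exonic bases.

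The measured difference of each gene kept its sign when FPKM was replaced by FPM or by coverage over annotated exons. On FPM the SE was smaller than on FPKM for CD36, FABP4, FABP5, SLC27A1, VLDLR and ANGPTL4 and larger for LPL and FABP3.

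**Figure D4:**
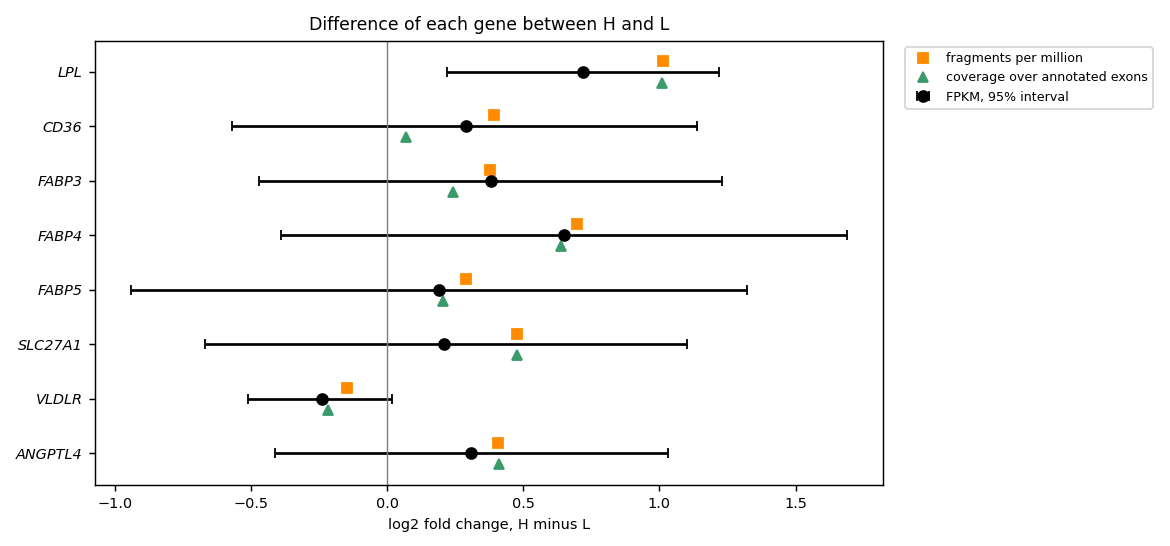
Log2 fold change (H minus L, horizontal axis) of the 8 genes from scaled FPKM with its 95% limma interval (black), from FPM (orange squares) and from coverage over annotated exons (green triangles). The interval of LPL, 0.22 to 1.22, is the only one that leaves out 0, and VLDLR is the only gene to the left of 0.

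Over all 12 pigs the genes were ordered by their mean level per length, and only neighbours in this order were compared, on the same values. FABP3, with a mean of 227 ± 114 scaled FPKM (SD, n = 12), was above CD36, with 98.0 ± 37.8, in 12 of 12 pigs (exact sign-flip permutation test, adjusted p = 0.00171 over 7 neighbouring pairs). CD36 was above FABP5, with 59.7 ± 37.9, in 10 of 12 pigs (exact sign-flip permutation test, adjusted p = 0.00684). The coverage over annotated exons gave the opposite order for this pair in 12 of 12 pigs. The annotated exons cover 14502 bases for CD36 and 682 for FABP5, while assembled CD36 transcripts had weighted lengths of 3172 to 10099 bases. The part of these lengths in the opposite order was not tested. Among FABP5, VLDLR with 45.7 ± 6.89, FABP4 with 42.3 ± 24.5 and LPL with 34.8 ± 15.0, neighbours did not differ from each other beyond the spread. LPL was above SLC27A1, with 8.40 ± 4.08, in 12 of 12 pigs (exact sign-flip permutation test, adjusted p = 0.00171), and SLC27A1 and ANGPTL4, with 8.23 ± 3.64, did not differ beyond the spread.

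The share of each gene's FPKM in full annotated intron chains was compared as a check on the assembly. It was 100% in all H pigs for LPL and FABP4, and its mean was lowest for SLC27A1 in H, 11.6 ± 28.3%, and for FABP3 in L, 33.9 ± 36.6% (SD, n = 6). The smallest adjusted p over the 8 genes was 0.607 in the exact permutation test. FABP3 was often assembled with an extra intron that spans its annotated start, chr6:87950683-87951114, in 7 libraries, 2 of H and 5 of L. A further intron after the annotated end of FABP5, chr4:55276967-55277118, was seen in 5 libraries, and an intron before its start, chr4:55282642-55282749, in 3 libraries, all of H. These introns were picked after the transcripts were seen and are given without a test.

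Other genes of the pathway were not called either, 0 of those tested at an adjusted p under 0.1. Of 15 partners of the lipase and lipoprotein receptors 11 were tested and 8 of them had a log2FC above 0, with 1 at a limma p under 0.05. APOE, a ligand of lipoprotein receptors, had 17.6 ± 9.28 scaled FPKM in H and 7.23 ± 3.42 in L (limma adjusted p = 0.614). LMF1, a chaperone of the lipase, had a log2FC of -0.92 and SCARB1, a lipoprotein receptor, one of 0.28 (limma adjusted p = 0.731 for both). ANGPTL8, another regulator of the lipase, was listed at 0 in every library, and APOC2 and LRP8 were under the minimum. The median log2FC of this list was 0.22.

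Among 19 further transport and binding proteins 11 were tested, 7 had a log2FC above 0, 2 of them at a limma p under 0.05, and the median was 0.09. CAV2, a caveolin, had 12.9 ± 1.63 scaled FPKM in H and 9.76 ± 1.53 in L (limma adjusted p = 0.579), and its partner CAV1 had 51.1 ± 8.18 and 40.3 ± 6.15 (limma adjusted p = 0.655). SLC27A4, a relative of SLC27A1, had a log2FC of -0.36 (limma adjusted p = 0.746). SLC27A2, FABP1, FABP2, FABP6 and FABP7 were listed at 0 in every library. Of 11 acyl-CoA synthetases, which trap fatty acids in the cell, 8 were tested, 5 had a log2FC above 0, and 0 had a limma p under 0.05. Those with the smallest limma p were ACSF2, with a log2FC of 0.23 (adjusted p = 0.728), ACSL5, with 0.21 (adjusted p = 0.802), and ACSL4, with -0.34 (adjusted p = 0.819). ACSL6, ACSBG1 and ACSBG2 were listed at 0.

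PPAR receptors switch on many genes of fatty acid uptake, among them LPL, CD36 and ANGPTL4. All 11 receptors and partners were tested and 6 had a log2FC above 0, 2 of them at a limma p under 0.05. PPARG, the receptor of adipocytes, had 1.41 ± 0.475 scaled FPKM in H and 0.87 ± 0.208 in L (limma adjusted p = 0.649). RXRG, a partner receptor, had 16.7 ± 4.41 in H and a lower mean in L, with a log2FC of 0.63 (limma adjusted p = 0.678). NCOR1, a corepressor, had a log2FC of -0.25 (limma adjusted p = 0.731). Of 13 PPAR targets in muscle 12 were tested, and 9 had a log2FC above 0, 2 of them at a limma p under 0.05. CPT1A, which admits fatty acids to mitochondria, had 4.43 ± 0.892 in H and 3.17 ± 0.269 in L (limma adjusted p = 0.574). UCP3, a mitochondrial carrier of muscle, had 37.5 ± 5.17 and 27.4 ± 7.63 (limma adjusted p = 0.644). CPT1B, the muscle form of CPT1A, had a log2FC of 0.34 (limma adjusted p = 0.787). The median log2FC was 0.02 for the receptors and partners and 0.04 for the targets.

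Markers of other cells of the tissue were mostly higher in H in their means, and 0 of them was called by limma at an adjusted p under 0.1. Of 12 adipocyte markers 10 were tested and 10 had a log2FC above 0, 2 of them at a limma p under 0.05, with a median of 0.73. CIDEC, a lipid droplet protein, had 2.74 ± 1.54 scaled FPKM in H and 0.873 ± 0.519 in L (limma adjusted p = 0.563), AQP7, a glycerol channel, had a log2FC of 0.74 (limma adjusted p = 0.678), and LEP, the hormone leptin, one of 0.71 (limma adjusted p = 0.687). RETN was listed at 0 in every library, and the summed level of the list was 161.8 to 420.7 in H and 150.3 to 336.7 in L. The largest part of this sum was GPD1, with 144 ± 87.2 in H and 126 ± 64.5 in L. Of 12 endothelial markers 10 were tested and 10 had a log2FC above 0, 3 of them at a limma p under 0.05, with a median of 0.30. ROBO4 had 4.36 ± 1.65 in H and 2.53 ± 0.418 in L (limma adjusted p = 0.563), TEK had a log2FC of 0.31 (limma adjusted p = 0.614) and KDR one of 0.38 (limma adjusted p = 0.678). CLDN5 was listed at 0 and the summed level was 69.81 to 150.1 in H and 47.77 to 115.8 in L. The part of adipocytes and capillaries in the levels of LPL and FABP4 was not tested.

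In the fibre lists 3 of 8 slow and 6 of 9 fast fibre markers tested had a log2FC above 0, and 0 had a limma p under 0.05. The slow list had a median log2FC of -0.09. Its leading genes were TNNT1, with -0.30 (limma adjusted p = 0.807), MYOZ2, with -0.30 (limma adjusted p = 0.849), and TNNI1, with 1.39 (limma adjusted p = 0.864). The mean of TNNI1 was lower in H, 718 against 812 in L, and its lowest L value was 0. The fast list had a median log2FC of 0.07. Its leading genes were TNNI2, with -0.32 (limma adjusted p = 0.844), TNNC2, with 0.17 (limma adjusted p = 0.874), and ATP2A1, with 0.23 (limma adjusted p = 0.88). The summed slow fibre level was 7572 to 11571 in H and 5379.7 to 12266 in L. Single markers were low or missing in places: the fast marker PVALB had 10.8 ± 5.43 in H and 14.2 ± 9.21 in L, the slow marker MYH7 was listed at 0 in at least 1 pig of each group, and TNNI1 in at least 1 L pig. Of 10 macrophage markers tested 7 had a log2FC above 0 (MRC1, CD163 and CSF1R leading, limma adjusted p = 0.683, 0.75 and 0.803), and CD68 was listed at 0. Of 9 preadipocyte and fibroblast markers 7 had a log2FC above 0 (DPT, CD34 and PDGFRA, limma adjusted p = 0.772, 0.797 and 0.8). Of 3 Schwann cell markers tested 2 did, and the log2FC was 0.25 for MBP (limma adjusted p = 0.869) and -0.04 for PMP22 (limma adjusted p = 0.976).

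Across the 12 pigs each gene was set against a score of adipocyte, endothelial and slow fibre markers, the mean of their standardized log2 levels, in 24 relations. At an adjusted p under 0.1 for Pearson's r 0 of 24 passed. FABP5 followed the endothelial score most evenly, with r = 0.70 (permutation p = 0.0108, adjusted p = 0.13) and Spearman's rho = 0.81 (permutation p = 0.00238, adjusted p = 0.0571), the 1 relation of 24 with an adjusted p under 0.1 by rank. Its r was 0.76 within H and 0.83 within L, and 0.57 without the 2 pigs farthest from the median score. The relation of FABP5 was not tested on FPM, although much of the FPKM spread of FABP5 moved with transcript length. LPL had r = 0.75 with the same score (permutation p = 0.00453, adjusted p = 0.109), 0.83 within H, -0.06 within L and 0.69 without those 2 pigs. Its rho was 0.39 (permutation p = 0.212, adjusted p = 0.643). FABP4 had r = 0.62 with the adipocyte score (permutation p = 0.0329, adjusted p = 0.258, rho = 0.64 with permutation p = 0.0299, adjusted p = 0.355), 0.79 within H and 0.32 within L, and 0.74 without the 2 pigs farthest from the median. LPL had r = 0.21 with the adipocyte score over all pigs (permutation p = 0.513, adjusted p = 0.724, rho = 0.105 with permutation p = 0.748), -0.56 within H, -0.70 within L and 0.07 without the 2 farthest pigs.

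**Figure D5:**
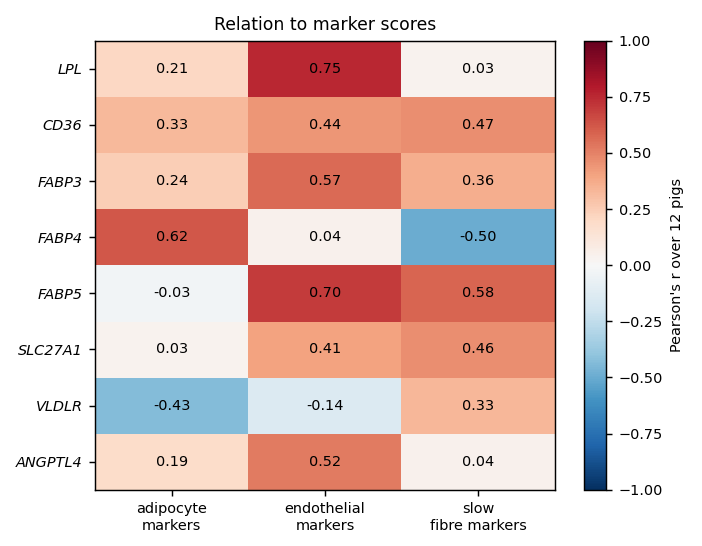
Pearson's r over the 12 pigs between the log2 level of each gene (rows) and the mean standardized level of adipocyte, endothelial and slow fibre markers (columns), from -1 in blue to 1 in red. The highest values are 0.75 for LPL and 0.70 for FABP5 with the endothelial score and 0.62 for FABP4 with the adipocyte score.

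Within the groups the labelled IMF percentage was set against each gene in 16 relations, and 0 passed after adjustment. In H the pigs with more IMF had less LPL, with r = -0.90 over 6 pigs (exact permutation p = 0.0153, adjusted p = 0.244) and rho = -0.83 (exact permutation p = 0.0583), and r = -0.74 without the 2 pigs farthest from the median. In L the r of LPL was 0.13 (exact permutation p = 0.571, rho = 0.2 with exact permutation p = 0.714) and it was -0.47 without 2 pigs. All other relations had an adjusted p of at least 0.78 in the exact permutation test.

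The 8 genes did not move as a block from pig to pig. Over their 28 pairs Pearson's r of the log2 levels had a median of 0.05, and ran from -0.49 between LPL and VLDLR to 0.71 between CD36 and FABP3, in 12 libraries whose scaling they share. For each gene the 3 genes most like it were sought among those above 0 in all 12 libraries, as a description with no test. LPL was most like MSL1 (r = 0.97), PARP12 (0.88) and STEAP4 (0.88). CD36 was most like SHD (0.91), PERM1 (0.91) and TMEM42 (0.89), FABP3 like LIPE (0.92), GOPC (0.91) and SLC25A30 (0.89), and FABP4 like HOPX (0.89), GJA1 (0.85) and C2H5orf30 (0.85). FABP5 was most like LOC110261322 (0.89), MRPL24 (0.87) and TBX3 (0.86), and SLC27A1 like ITGA1 (0.89), STIM1 (0.88) and RILPL1 (0.88). VLDLR was most like SOWAHC (0.85), TDRD7 (0.84) and UNC45B (0.83), and ANGPTL4 like SAP130 (0.91), BEST3 (0.87) and ABCA1 (0.84).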

How the data were processed

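Each of the 12 LD samples gave 1 paired-end library with reads of 76 bases. Per the submitters' processing notes and the study's methods, the authors checked the raw reads with FastQC, trimmed them with Trim Galore, aligned them with TopHat 2.1.0 to the genome build Sscrofa11.1, and used Cufflinks 2.2.1 to assemble and quantify transcripts separately for every pig. Every assembled transcript has an FPKM and a read coverage in the deposited data, and the coverage adds up to between 9.88 and 17.6 gigabases per pig. Read counts were not used here, so counting intervals are not given. Where no transcript of a gene was assembled its value is 0. Because assembly was separate, the length of a gene's transcripts differs between pigs, and FPKM is divided by that length.

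Transcripts went to the RefSeq gene (28224 on chromosomes, not the Ensembl genes of the authors) that shared most exonic bases on their strand. Gene sums of FPKM were made in Python 3.11.15 and scaled by median ratios in R 4.3.3. A mean of 0.5 FPKM in at least 1 group was required. On the scale log2(FPKM + 0.5), H was compared with L by limma 3.58.1 (R 4.3.3, trended variance, two-sided), and p-values were adjusted by Benjamini-Hochberg with a threshold of 0.1. Fold changes on this scale understate those of low genes. The fit and the permutation functions were tested on simulated data. Exact permutation tests took all 924 ways to split 6 against 6 (smallest p 0.00216), and correlations over 12 pigs took 100000 resamples. Near copies of exons were sought with BLAST+ 2.17.0. Beside the 8 genes, the 3 with the smallest p of each list are named, and a few genes of the lists are not reported here. The 8 genes, the lists and the tests were chosen with earlier results of these data known. Sequences were read from the RefSeq genome.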

Additional observations from a re-analysis of the deposited data

Results flagged for a closer look

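In the H group 2 values stood apart from the other 5 pigs by Dixon's ratio, a check that chance passes in about 1 of 20 groups, and 16 groups were checked. FABP3 was at 495 scaled FPKM in H5, where its transcript was assembled at 606 bases, the shortest of the 12 libraries. VLDLR was at 57.7 scaled FPKM in H6, above all 11 other pigs, and in FPM H6 was also the highest, with 195. The part of transcript length in either value was not tested.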

How the results depend on the processing

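The count of 0 of the 8 genes called held under each alternative run. The number of all genes called, 1, became 0 with a minimum mean of 1 FPKM, with genes above 0 in all libraries and with the individual number as a replicate block, 2 without a variance trend or with array weights, 3 on FPM, and 1 to 3 when a pig was left out. Same-numbered pigs did not deviate together (correlations of -0.0764 to 0.06), and the block changed no other call. The count of the 8 genes with p under 0.05, 1, became 0 with annotated intron chains only and was 1 to 2 when a pig was left out, with VLDLR as the second without H6. Between the pigs left out, log2FC was 0.57 to 0.86 for LPL, 0.36 (without L4) to 0.85 for FABP4, 0.11 (without L3) to 0.59 (without L1) for FABP3 and 0.16 (without L6) to 0.53 (without L5) for ANGPTL4. With annotated intron chains only it was 1.73 for LPL, 1.95 for FABP3 and 1.56 for ANGPTL4. Log2FC turned sign with annotated intron chains only for CD36 (-0.14), FABP5 (-2.36), SLC27A1 (-0.79) and VLDLR (0.95), with array weights for FABP5 (-0.17), and without H4 and L3, the files with most and fewest transcripts, for SLC27A1 (-0.15). Leaving out single pigs gave FABP5 -0.062 to 0.43 (below 0 without H2, H5 or L2), CD36 -0.033 to 0.51 (below 0 without L3) and SLC27A1 -0.085 to 0.45 (below 0 without L3). The cause was not tested. By Pearson's r 0 of the 24 relations to marker scores passed, but 2 did, those of LPL and FABP5 with the endothelial score, on FPKM as deposited (adjusted p = 0.0917 each by permutation) and after quantile normalization (adjusted p = 0.0682 and 0.0923 by permutation). By rank that of FABP5 passed in both (adjusted p = 0.0108 and 0.047 by permutation) and that of LPL in neither (0.222 and 0.381). Of the 7 neighbouring pairs of levels 3 differed, and 4 on coverage, where VLDLR was above FABP4 too. The files give a read coverage but no read counts, so the number of reads behind a single value is not given here.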
